A study of Mus musculus with 32 samples.

Results

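The insulin-like growth factor system was examined through 10 genes of the 39676 in the count table: the ligands Igf1 and Igf2, the receptors Igf1r and Igf2r, and the binding proteins Igfbp2, Igfbp3, Igfbp4, Igfbp5, Igfbp6 and Igfbp7. They were chosen by gene symbol, and each had 1 row in the table. The tumors came from 32 untreated mice, 8 in each of 4 groups, and were collected on day 10 after inoculation. In the AB1 IPL and AB1 SC groups, 500000 cells of the murine mesothelioma line AB1 were placed in the pleural cavity (intrapleural, IPL) or under the skin of the flank (subcutaneous, SC) of BALB/c mice. In the AE17 IPL and AE17 SC groups, 1000000 cells of the mesothelioma line AE17 were placed at the same sites of C57BL/6 mice. Each inoculum was 200 μL at the IPL site and 100 μL at the SC site, so volume changed with site. Mouse strain and cell number changed with the cell line, each model is 1 line, and the RNA came from whole tumors that still held host cells. In such bulk RNA, more cells of a type and more RNA per cell cannot be told apart.

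IGF1 and IGF2 are secreted growth factors that signal to growth and survival pathways through IGF1R, a receptor tyrosine kinase. IGF2R, the cation-independent mannose-6-phosphate receptor, takes up IGF2 for breakdown in lysosomes and carries lysosomal enzymes. The IGFBPs hold the ligands outside the cell and release them when proteases cut them. IGF signaling has been described in mesothelioma as a growth pathway.

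The libraries held between 15432258 and 20649645 counts, so that 3 counts, taken as the limit of detection, corresponded to 0.14 to 0.189 CPM (counts-per-million, scaled to library size with TMM factors). This limit covers counting error only. Sequencing lane was partly tied to group. Lane 3 carried all 8 AB1 IPL tumors and 2 AB1 SC tumors, lane 2 carried 6 AB1 SC and 5 AE17 IPL tumors, and lane 1 carried 3 AE17 IPL tumors and all 8 AE17 SC tumors. Tumors of both models from the same site were never on the same lane. Defining markers of other cell types moved with site. Mature skeletal muscle genes, such as Ckm and Acta1, had a summed median of 1964 CPM (110 to 4295) in AB1 IPL tumors against 284 CPM (53.8 to 450) in AB1 SC tumors, and 7 of 8 were higher in IPL tumors. In AE17 tumors the same sums were 467 CPM (56.5 to 776) and 543 CPM (44.5 to 1251), and 0 of 8 differed by edgeR.

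Per kilobase of exon, Igfbp4, Igfbp6 and Igfbp7 had the 3 highest mean levels in each of the 4 groups, and Igf2 and Igfbp2 the 2 lowest. Igf1r was above Igf1 in both AB1 groups (5.99 against 3.99 CPM per kb in SC and 6.14 against 4.08 in IPL tumors) and below it in AE17 SC tumors (4.61 against 6.74). It was the higher of the pair in 7 of 8 AB1 SC, 7 of 8 AB1 IPL, 0 of 8 AE17 SC and 4 of 8 AE17 IPL tumors, so that no order was seen in AE17 IPL tumors. Igfbp4, a binding protein cleaved by the protease PAPP-A, was highest in AB1 SC tumors (84.9 ± 17.4 CPM per kb, SD, n = 8), AB1 IPL tumors (113 ± 32.3) and AE17 SC tumors (94 ± 26.9). In AE17 IPL tumors Igfbp7, a secreted protein of vessels that binds IGFs weakly, had the highest mean at 92 ± 28.7 CPM per kb, with Igfbp4 at 78.9 ± 14.4. The difference between these neighbors was smaller than their SDs. Igfbp4, Igfbp6 and Igfbp7 together made up a mean of 82.9% of the summed level of the 6 binding proteins per kb in AB1 SC tumors, 86.4% in AB1 IPL, 92.1% in AE17 SC and 90.6% in AE17 IPL tumors. The summed level of the 6 was 239 ± 40.4, 288 ± 73.9, 257 ± 46.5 and 252 ± 50.6 CPM per kb in these groups, while the 2 ligands together reached 4.13 ± 1.49, 4.88 ± 1.81, 6.95 ± 1.12 and 5.71 ± 2.27 CPM per kb.

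In the order of group means, neighboring groups differed by less than the larger SD for Igf1, Igf2, Igfbp3, Igfbp4, Igfbp6 and Igfbp7. The steps larger than the SD were those of Igf2r from AB1 SC to AB1 IPL and on to AE17 IPL, of Igf1r from AE17 SC to AB1 SC, of Igfbp5 from AE17 SC to AB1 SC, and of Igfbp2 from AB1 IPL to AE17 SC and on to AE17 IPL.

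**Figure D1:**
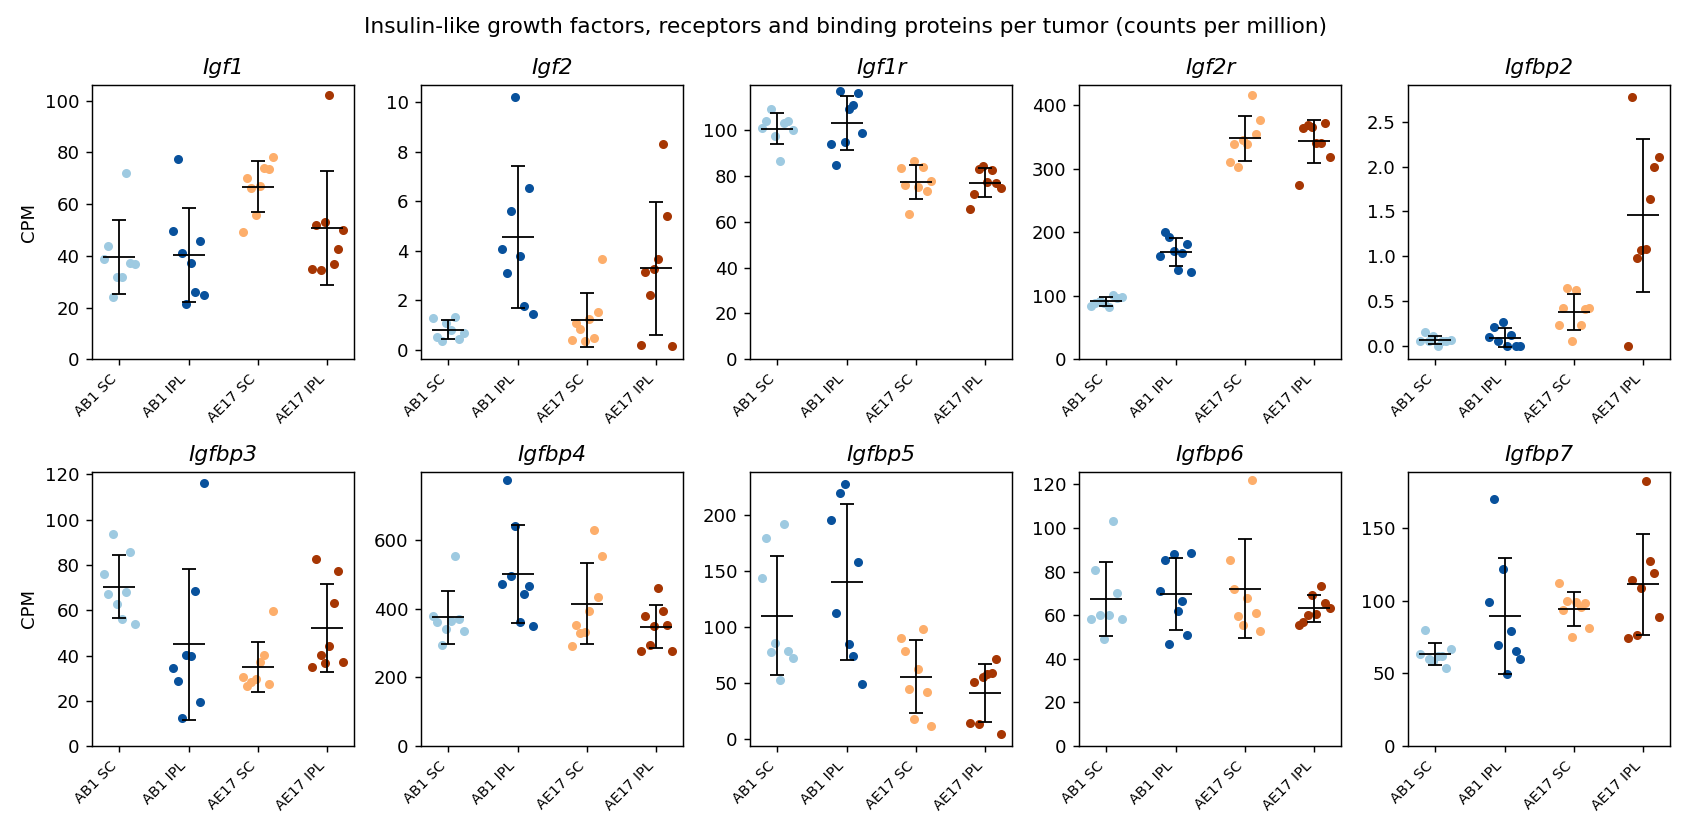
Level of each gene in CPM (linear axis, own scale per gene) in the 32 tumors, grouped by model and site, with points for single tumors and black bars for the mean ± SD of 8. Igf2r rose in steps from AB1 SC through AB1 IPL to both AE17 groups, while Igf1r was at like levels at both sites of a model.

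Of the 10 genes, 9 were tested in AB1 and 2 passed the threshold, both higher in IPL tumors, while 23% of all 14645 tested genes passed it (edgeR, adjusted p under 0.05). In AE17 all 10 were tested and 1 passed, where 5.73% of 14668 genes did. That gene was Igfbp2, which passed the expression filter mainly through its IPL tumors. The median log2 fold change of the tested genes was 0.32 in AB1 and -0.01 in AE17, against 0.00 over all genes in both, and the median size of change was 0.39 and 0.32, against 0.19 and 0.13. The site effect differed between models for 3 of the 9 genes tested in both, Igf2r, Igfbp3 and Igfbp4, against 20.5% of all 15681 genes.

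Igf2r, the receptor that clears IGF2, was higher in IPL than in SC tumors of the AB1 model and showed no site difference in the AE17 model. It lies on mouse chromosome 17 (GRCm38, chr17:12682406-12769664, minus strand). In AB1 SC tumors its level ran from 82.6 CPM through a median of 89.9 CPM to 101 CPM, and in AB1 IPL tumors from 137 CPM through 169 CPM to 200 CPM. All 8 IPL tumors lay above every SC tumor. The means were 91.1 ± 6.75 CPM and 169 ± 22.3 CPM (SD, n = 8 each), a 1.82-fold difference (log2 fold change 0.86, SE 0.08, adjusted p = 7.52e-06 by edgeR's quasi-likelihood test). The difference was 0.92 within lane 3 (2 SC and 8 IPL tumors, adjusted p = 0.0223) and 0.96 with lane as a covariate (adjusted p = 0.00249). With marker scores of skeletal muscle, heart muscle, adipocytes and lung epithelium as covariates it was 0.78 (adjusted p = 0.00854). Without any 1 tumor it lay between 0.83 and 0.90 and kept its call each time.

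In AE17 tumors Igf2r ran from 303 CPM through 342 CPM to 415 CPM at the SC site and from 274 CPM through 352 CPM to 372 CPM at the IPL site. The ranges overlapped almost fully. The log2 fold change was -0.01 (SE 0.07, 95% interval -0.16 to 0.14, adjusted p = 0.942 by edgeR). The site effects of the models differed, with a log2 difference of AE17 minus AB1 of -0.89 (SE 0.11, adjusted p = 7.84e-06). All AE17 tumors lay above all AB1 tumors of the same site, by 3.85-fold among SC tumors (log2 fold change 1.94, SE 0.08, adjusted p = 7.46e-20) and 2.07-fold among IPL tumors (1.05, SE 0.08, adjusted p = 1.50e-13), where cell line, strain and cell number cannot be told apart. With lane as a covariate these values were 1.90 (adjusted p = 1.44e-11) and 0.91 (adjusted p = 1.99e-05). Per kb of exon Igf2r ranked 6 of 10 in AB1 SC tumors, 5 in AB1 IPL tumors and 4 in both AE17 groups.

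Fibroblast genes, such as Col1a1, also rose in AB1 IPL tumors, with 3 of 4 measured genes higher and summed levels of 10978 to 29247 CPM against 9002 to 11720 CPM, none of them at 0. Macrophage genes, such as Mrc1, fell in 3 of 4, with 1045 to 1828 CPM against 1313 to 2156 CPM. Their part in the Igf2r difference was not tested. For correlations, the score of a marker list was the mean log2 CPM of its genes. After removal of the 4 group means, log2 CPM of Igf2r followed the fibroblast score with r = 0.58 over 32 tumors (Spearman's rho 0.40). Without the 2 tumors farthest from the Igf2r median, r was 0.47. Igf2r followed the mature muscle score with r = 0.34 (rho 0.30, 0.20 without 2). The genes most like it by this measure among 13980 genes were Fbxl20 (r = 0.82), Numbl (0.80) and Ttc28 (0.79). Depth and composition differed among these tumors, and the values are descriptions.

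The 250 bases before the start of Igf2r and of the first of 4 RefSeq starts of Igf2 are shown because these were the members whose level differed by site in AB1 (RefSeq, GRCm38.p6, minus strand, chr17:12769707-12769956 and chr7:142666817-142667066). Capitals mark CACGTG, a core bound by many helix-loop-helix factors, and AGGTCA on either strand, a core bound by nuclear receptors.
Igf2r: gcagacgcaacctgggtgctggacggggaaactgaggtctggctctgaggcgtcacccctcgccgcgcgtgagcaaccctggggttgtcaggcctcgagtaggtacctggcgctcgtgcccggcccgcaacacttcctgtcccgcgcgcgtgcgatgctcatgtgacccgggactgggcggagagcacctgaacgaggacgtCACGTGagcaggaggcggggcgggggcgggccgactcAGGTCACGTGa
Igf2: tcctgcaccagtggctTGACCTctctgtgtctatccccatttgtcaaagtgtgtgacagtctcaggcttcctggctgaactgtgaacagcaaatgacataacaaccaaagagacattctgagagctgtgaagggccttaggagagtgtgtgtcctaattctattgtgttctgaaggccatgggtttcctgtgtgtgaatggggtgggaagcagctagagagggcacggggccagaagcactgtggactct
The Igf2r stretch held 2 CACGTG and 1 AGGTCA, which overlapped with a CACGTG, and 27 CG pairs. Among 32851 RefSeq windows of this length, 6.02% had at least 1 CACGTG, 0.429% at least 2, 14% an AGGTCA on either strand, and 8.56% at least as many CG pairs as Igf2r. The Igf2 stretch held 1 CG pair, 1 AGGTCA on the opposite strand (printed as TGACCT) and 0 CACGTG, and the other 3 Igf2 starts had 10, 22 and 6 CG pairs and neither motif. All 10 genes had a window, 14 windows in all, and among the members not shown Igf1 and Igf1r each had 1 AGGTCA and Igfbp2 had 1 CACGTG. Both motifs were chosen after the Igf2r stretch had been seen. Gene counts do not tell which start was used, and a match of letters is a description.

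Igf2, the fetal growth factor of the imprinted Igf2-H19 locus (chr7:142650766-142666816, minus strand), was low in all groups and higher in IPL than in SC tumors of the AB1 model. AB1 SC tumors ran from 0.359 CPM through a median of 0.744 CPM to 1.34 CPM, from 6 to 24 counts per tumor. AB1 IPL tumors ran from 1.43 CPM through 3.93 CPM to 10.2 CPM, from 27 to 187 counts. The groups did not overlap. The log2 fold change was 2.44 (SE 0.39, 5.44-fold, adjusted p = 3.17e-04 by edgeR) and lay between 2.15 and 2.60 when any 1 tumor was left out. It was 2.33 with lane as a covariate (adjusted p = 0.0953), 2.28 within lane 3 (adjusted p = 0.236) and 0.99 after adjusting for the 4 tissue scores (SE 0.51, adjusted p = 0.282), so that the call was lost in these fits.

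AE17 tumors ran from 0.356 CPM through 0.958 CPM to 3.65 CPM at the SC site and from 0.167 CPM through 3.19 CPM to 8.32 CPM at the IPL site. Of the 8 AE17 IPL tumors, 6 lay above the SC median, and replicates 1 and 8 lay below every SC tumor at 0.174 CPM and 0.167 CPM, 3 counts each. The log2 fold change was 1.47 (SE 0.63, adjusted p = 0.162) and did not pass the test. The difference between the models' site effects was -1.0 (SE 0.77, 95% interval -2.58 to 0.58, adjusted p = 0.392), and -1.35 to -0.52 without 1 tumor. No difference between the models was therefore detected for Igf2. In the annotation Igf2 shares 3596 exonic bases on the same strand with Gm49394, which was not analysed here, and 98 bases with the antisense gene Igf2os, which held 118 counts in all tumors. How strand was treated in counting is not given in the sources used here, and a loss or gain of Igf2 reads through these overlaps cannot be seen from gene counts.

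H19, the noncoding RNA transcribed from the other parental copy of the locus, moved with Igf2. In AB1 IPL tumors it ran from 12.7 CPM through 170 CPM to 561 CPM and in AB1 SC tumors from 0.572 CPM through 11.2 CPM to 19.5 CPM (log2 fold change 4.18, SE 0.80, adjusted p = 0.00138). It was 0.85 (SE 0.60, adjusted p = 0.397) in AE17, and the site effects differed by -3.36 (SE 0.98, adjusted p = 0.0151). With lane as a covariate the AB1 value of H19 was 3.52 (adjusted p = 0.218) and the difference of the site effects was -2.56 (adjusted p = 0.427). With the tissue scores as covariates the AB1 value of H19 was 0.60 (SE 0.28, adjusted p = 0.239), and its call was lost. After removal of group means Igf2 followed H19 with r = 0.71 over 32 tumors (rho 0.75). Without the 2 tumors farthest from the Igf2 median, r was 0.64. Within groups r was 0.30 in AB1 SC, 0.78 in AB1 IPL, 0.86 in AE17 SC and 0.96 in AE17 IPL tumors.

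Igf2 also followed the genes of regenerating muscle (Myog, Myh3 and Myh8 among them, 5 of 6 with a row), with r = 0.72 over 32 tumors (rho 0.71, r = 0.58 without 2) after removal of group means, and 0.23 in AB1 SC, 0.55 in AB1 IPL, 0.54 in AE17 SC and 0.99 in AE17 IPL tumors. All 4 tested genes of that list were higher in AB1 IPL tumors, with summed levels of 11.2 to 179 CPM (median 118) against 3.03 to 30.4 CPM (median 17.8), none at 0. AB1 IPL replicate 2 had the lowest sum at 11.2 CPM, inside the SC range, and mature muscle at 110 CPM, yet its Igf2 was 3.12 CPM, above every SC tumor, while its H19 of 12.7 CPM lay within the SC range. AB1 IPL replicate 8, with a sum of 27.7 CPM, had Igf2 at 1.43 CPM, next to the highest SC value. In AE17 the IPL tumors with the lowest sums, replicates 1 (6.63 CPM) and 8 (2.62 CPM), were those with the lowest Igf2. The part of muscle in the Igf2 difference was not tested beyond the fit with 4 tissue scores. The genes most like Igf2 over the tumors were Pgm5 (r = 0.79), Rasl11b and Fibin (both 0.77).

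**Figure D2:**
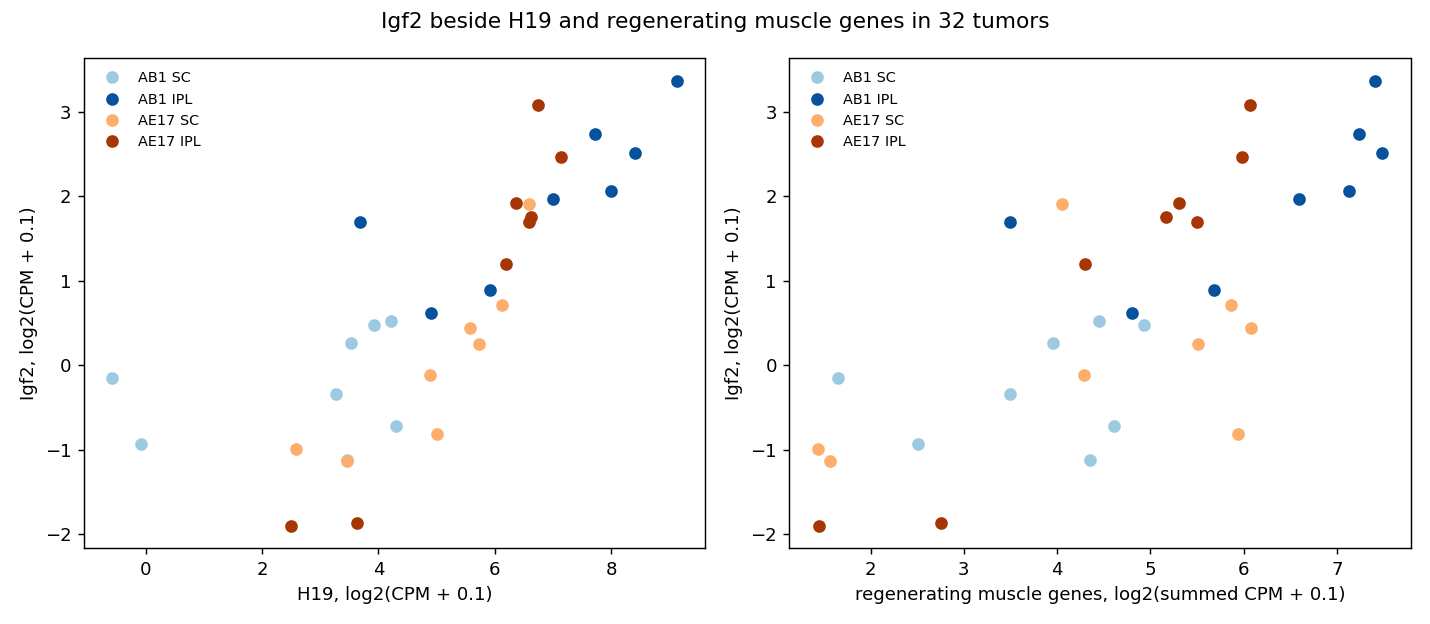
Igf2 (log2 of CPM plus 0.1, vertical axis) against H19 (left) and against the summed CPM of regenerating muscle genes (right, same log2 scale) with 1 point for each of 32 tumors, colored by group. Igf2 rose with both over the pooled groups, and AB1 IPL replicate 2 stands apart at low H19 (12.7 CPM) and a low muscle sum (11.2 CPM) with Igf2 at 3.12 CPM.

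Igf1, the ligand induced by growth hormone in liver and made by stromal cells and macrophages in tumors, passed the test by site in neither model. AB1 SC tumors ran from 23.9 CPM through 37.2 CPM to 72.1 CPM and AB1 IPL tumors from 21.3 CPM through 39.1 CPM to 77.3 CPM, with a log2 fold change of 0.01 (SE 0.26, 95% interval -0.54 to 0.55, adjusted p = 0.993). AE17 SC tumors ran from 49.3 CPM through 68.5 CPM to 78.3 CPM and AE17 IPL tumors from 34.7 CPM through 46.4 CPM to 102 CPM (log2 fold change -0.38, SE 0.19, adjusted p = 0.223). Of the 8 AE17 IPL tumors, 7 lay below the SC median, and the exception was replicate 5 at 102 CPM. Without that tumor the value was -0.62 and passed the test (adjusted p = 0.00965). The same tumor had the highest adipocyte sum of all 32, 898 CPM against a group median of 33.3 CPM, and a heart muscle sum of 165 CPM against 15.5 CPM. In SC tumors Igf1 was 1.7-fold higher in AE17 than in AB1 (log2 fold change 0.77, SE 0.23, adjusted p = 0.00582), and in IPL tumors the value was 0.36 (adjusted p = 0.184), or 0.56 without AB1 IPL replicate 2 (adjusted p = 0.0292). Its closest genes were Enpp2 (r = 0.87), Prorsd1 (0.81) and Rgs5 (0.79).

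Igf1r, the signaling receptor (chr7:67952827-68233668, plus strand), had the lowest coefficient of variation of the 10 genes in each group, 6.66% to 11.3%, and no site difference was detected. AB1 SC tumors ran from 86.4 CPM through 102 CPM to 109 CPM and AB1 IPL tumors from 84.7 CPM through 104 CPM to 117 CPM, and AE17 tumors from 63.6 CPM through 76.9 CPM to 86.4 CPM (SC) and 65.5 CPM through 77 CPM to 84.5 CPM (IPL). The site fold changes were 0.01 on the log2 scale in AB1 (SE 0.07, 95% interval -0.15 to 0.16, adjusted p = 0.969) and 0.00 in AE17 (SE 0.07, -0.14 to 0.14, adjusted p = 0.996). AE17 tumors were lower than AB1 tumors, by a log2 fold change of -0.37 in SC tumors (SE 0.07, adjusted p = 2.23e-05) and -0.39 in IPL tumors (SE 0.07, adjusted p = 7.97e-06). At the IPL site all 8 AE17 tumors were below the lowest AB1 tumor, and at the SC site the highest AE17 tumor and the lowest AB1 tumor met at 86.4 CPM. Both values held with lane as a covariate (-0.39, adjusted p = 0.0154 in SC, and -0.39, adjusted p = 0.0342 in IPL). Its closest genes were Sept11 (r = 0.70), Pnma1 (0.69) and Cdk6 (0.66).

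Igfbp2, a binding protein that can also act on integrins, was detected in AE17 tumors and was at or near the limit of detection in AB1 tumors. AB1 tumors held 0 to 3 counts at the SC site and 0 to 5 counts at the IPL site, 10 and 14 counts over 8 tumors, and the gene did not pass the expression filter there. The exact two-sided permutation test of its CPM gave p = 0.574 (smallest possible 1.55e-04, n = 8 each). AE17 SC tumors ran from 0.0594 CPM through 0.418 CPM to 0.647 CPM (1 to 11 counts), and AE17 IPL tumors from 0 through 1.36 CPM to 2.77 CPM (0 to 47 counts). Of the 8 IPL tumors, 7 lay above every SC tumor and replicate 1 held 0 counts, which allows up to 0.174 CPM. The log2 fold change was 1.92 (SE 0.51, 3.79-fold, adjusted p = 0.0391 by edgeR, 0.0075 by DESeq2). Igfbp2 passed the expression filter in AE17 mainly through its IPL tumors, where it is higher, so this call is not read as support. It also stood close to the threshold. The call was lost in 12 of 16 fits that left out 1 tumor (log2 fold change 1.71 to 2.11) and without a filter. It was also lost with lane as a covariate (2.31, adjusted p = 0.161), within lane 1 (2.31, adjusted p = 0.0551), with tissue scores (2.56, adjusted p = 0.118) and by limma-voom (1.71, adjusted p = 0.0602). Between models Igfbp2 passed the expression filter only through the AE17 tumors, where it is higher, so no test between models or of their site effects is read for it.

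**Figure D3:**
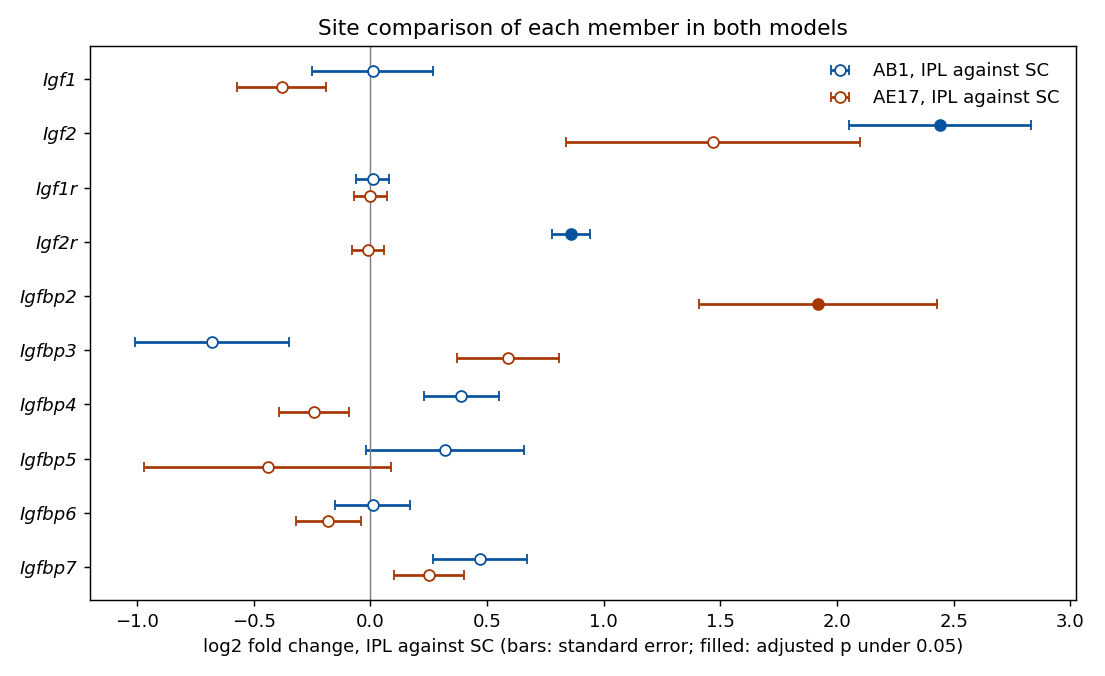
Log2 fold change of IPL against SC tumors (horizontal axis) with its SE for each gene in the AB1 model (blue) and the AE17 model (brown), filled where the adjusted p was under 0.05. Igf2 and Igf2r in AB1 and Igfbp2 in AE17 are filled, and Igfbp2 has no AB1 value. Igfbp3, Igfbp4 and Igfbp5 lie on opposite sides of 0 in the models. Igf1, Igf2r and Igfbp6 also do, each with a value near 0 in a model.

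Igfbp3, the main carrier of IGFs in blood, was lower in AB1 IPL and higher in AE17 IPL tumors than at the SC site, with neither difference past the threshold by edgeR. AB1 SC tumors ran from 54 CPM through 67.6 CPM to 93.7 CPM and AB1 IPL tumors from 12.3 CPM through 37.2 CPM to 116 CPM. In AB1 6 of 8 IPL tumors lay below every SC tumor, and replicate 8 lay above all of them at 116 CPM. The log2 fold change was -0.68 (SE 0.33, adjusted p = 0.152), -1.05 without that tumor (adjusted p = 0.00817) and -1.23 by limma-voom with sample weights (adjusted p = 0.00184). With the tissue scores as covariates its direction turned, to 0.15 (SE 0.41, adjusted p = 0.851). AE17 SC tumors ran from 26.4 CPM through 30 CPM to 59.6 CPM and AE17 IPL tumors from 34.8 CPM through 42.3 CPM to 82.8 CPM (0.59, SE 0.22, adjusted p = 0.104), with all 8 IPL tumors above the SC median, and by limma-voom it passed (0.82, adjusted p = 0.00839). The difference between the site effects was 1.25 (SE 0.42, adjusted p = 0.031), and 1.45 with lane as a covariate (adjusted p = 0.211). Its call was lost when any 1 of 3 tumors was left out of 32. Among SC tumors Igfbp3 was 2-fold lower in AE17 (log2 fold change -1.0, SE 0.30, adjusted p = 0.00444), and among IPL tumors the value was 0.25 (adjusted p = 0.47), which was 0.62 without AB1 IPL replicate 8 (adjusted p = 0.0328) and 0.85 by limma-voom (adjusted p = 0.00682). Nt5e (r = 0.78), Bcl6b (0.77) and Gm3555 (0.76) were most like it.

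Igfbp4 ran from 294 CPM through 363 CPM to 554 CPM in AB1 SC tumors and from 351 CPM through 469 CPM to 775 CPM in AB1 IPL tumors, with 6 of 8 IPL tumors above the SC median. The log2 fold change was 0.39 (SE 0.16, adjusted p = 0.0882), and it passed the threshold without AB1 SC replicate 6 (adjusted p = 0.0186), AB1 IPL replicate 8 (0.041) or AB1 IPL replicate 5 (0.0497). AE17 SC tumors ran from 293 CPM through 374 CPM to 629 CPM and AE17 IPL tumors from 277 CPM through 352 CPM to 460 CPM (-0.24, SE 0.15, adjusted p = 0.338). The site effects differed by -0.65 (SE 0.22, adjusted p = 0.0387), a call that was lost in 14 of 32 fits without 1 tumor and with lane as a covariate (-0.71, adjusted p = 0.302). Olfml3 (r = 0.90), Mxd4 (0.89) and Lhfpl2 (0.88) followed Igfbp4 most closely, and the fibroblast score followed it with r = 0.69 (rho 0.56, 0.54 without 2).

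Igfbp5, a binding protein held in the matrix and made in muscle and stroma, ran from 52.6 CPM through 82.3 CPM to 192 CPM in AB1 SC, from 49.5 CPM through 135 CPM to 228 CPM in AB1 IPL, from 11.2 CPM through 53.3 CPM to 98.6 CPM in AE17 SC and from 4.73 CPM through 53.3 CPM to 71.6 CPM in AE17 IPL tumors. It did not pass the test by site in AB1 (0.32, SE 0.34, adjusted p = 0.517) or AE17 (-0.44, SE 0.53, adjusted p = 0.645). The AB1 direction turned with lane as a covariate (-0.22), within lane 3 (-0.28) and with the tissue scores (-1.04, SE 0.38, adjusted p = 0.138). In IPL tumors it was 3.38-fold lower in AE17 than in AB1 (log2 fold change -1.76, SE 0.47, adjusted p = 0.0017), though with lane as a covariate the value was -1.06 (adjusted p = 0.423). It followed the regenerating muscle score with r = 0.62 (rho 0.64, 0.59 without 2) and the fibroblast score with r = 0.57 (rho 0.72, 0.62 without 2). Ramp2 (r = 0.85), Pgm5 (0.84) and Lrrc32 (0.82) were most like it, so that Pgm5 was among the closest genes of both Igf2 and Igfbp5.

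Igfbp6, which prefers IGF2 as its ligand, had group means from 63.1 to 72.1 CPM and passed the test in none of the 5 comparisons, with site values of 0.01 in AB1 (SE 0.16, adjusted p = 0.958) and -0.18 in AE17 (SE 0.14, adjusted p = 0.445). Tspan17 (r = 0.79), Plod1 (0.77) and Ahnak2 (0.76) were most like it. Igfbp7 ran from 53.4 CPM through 61.7 CPM to 79.5 CPM in AB1 SC and from 49.7 CPM through 74.1 CPM to 170 CPM in AB1 IPL tumors. The log2 fold change was 0.47 (SE 0.20, adjusted p = 0.107), and 0.29 to 0.56 without 1 tumor. Among these fits Igfbp7 passed the threshold only without AB1 IPL replicate 5 (adjusted p = 0.0412). In AE17 it ran from 74.9 CPM through 97.1 CPM to 112 CPM (SC) and from 74 CPM through 111 CPM to 182 CPM (IPL) (0.25, SE 0.15, adjusted p = 0.331). It was higher in AE17 SC than in AB1 SC tumors (0.59, SE 0.19, adjusted p = 0.00739), with 7 of 8 AE17 tumors above every AB1 tumor, and 0.64 with lane as a covariate (adjusted p = 0.164). It followed the endothelial genes, such as Pecam1 and Cdh5, with r = 0.87 over 32 tumors after removal of group means (rho 0.81, 0.80 without 2). Its closest single genes were Cygb (r = 0.86), Adamts2 and Rab3d (both 0.85). In the annotation it shares 85 exonic bases with Polr2b on the opposite strand.

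In the comparisons between models, Igfbp2 was left out because it entered the fit only through its AE17 counts. Of the other 9 genes, 5 passed the threshold in SC tumors, where 58.3% of all 15681 genes did, and 4 in IPL tumors, where 63.4% did. Higher in AE17 SC tumors were Igf1, Igf2r and Igfbp7 and lower were Igf1r and Igfbp3. In IPL tumors Igf2r was higher in AE17, and Igf1r, Igfbp4 (-0.49, SE 0.16, adjusted p = 0.00807) and Igfbp5 were lower. With lane as a covariate, 3 of the 9 passed in SC tumors (Igf1, Igf1r and Igf2r), where 5268 of all 15681 genes did. In IPL tumors 2 of the 9 passed (Igf1r and Igf2r), where 5008 of all genes did.

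**Figure D4:**
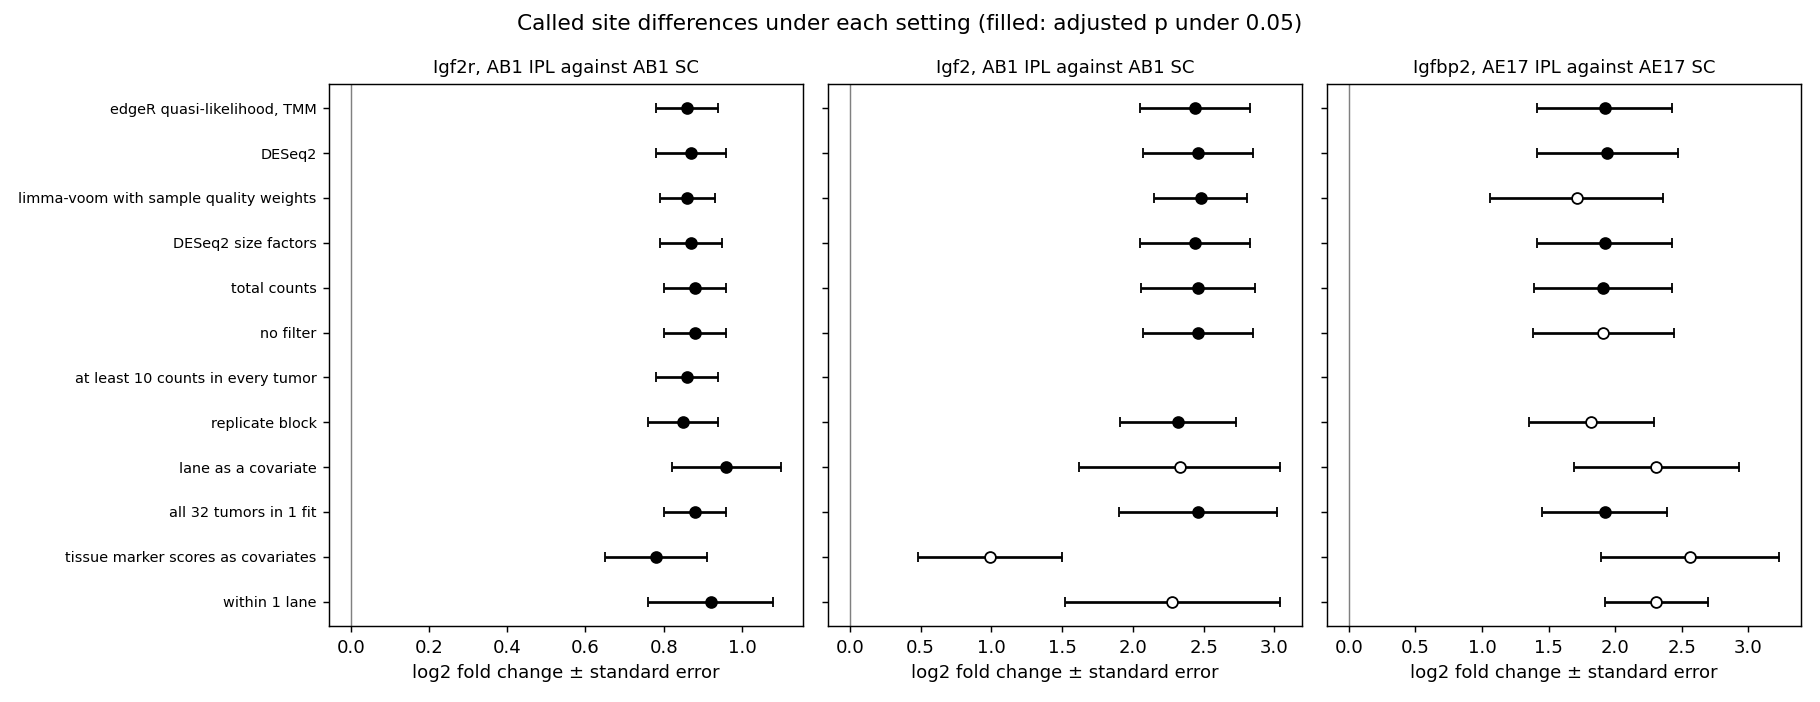
Log2 fold change ± SE (horizontal axes, own scale per gene) of the site differences that passed the threshold, under each way of processing (rows), filled where the adjusted p was under 0.05. Igf2r in AB1 is filled in all rows, Igf2 in AB1 is open with lane or tissue terms, and Igfbp2 in AE17 is open in several rows. A row without a point had no value because the gene was filtered out.

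Around these genes, 60 others of the pathway were listed and 52 had a row in the table. In AB1, 42 were tested, of which 9 were higher and 6 lower in IPL tumors (median log2 fold change 0.00, against 0.00 over all genes), where 3374 of all 14645 genes (23%) passed. In AE17, 43 were tested, of which 0 were higher and 3 lower, where 5.73% of all genes passed. With the lane term 2 of these genes passed in AB1, where 386 of all genes did, and 0 in AE17, where 1 of all genes did and 2362 had an unadjusted p under 0.05. Those 2 in AB1 were Insrr (-1.57, adjusted p = 0.0453) and Cish (-1.59, adjusted p = 0.0348). With the tissue scores 3 passed in AB1, where 689 of all 14645 genes did, and 0 in AE17, where 39 of all 14668 did. The 3 were Insrr (-1.89, adjusted p = 0.044), Cish (-2.01, adjusted p = 0.0218) and Foxo1, which is named after its values were seen (-0.50, adjusted p = 0.0413). Within lane 3 Cish (-1.64, adjusted p = 0.0206) and Socs2 (-0.86, adjusted p = 0.0268) passed, where 169 of all 15993 genes did. Insrr did not pass there (-1.62, adjusted p = 0.121). Apart from Insrr and Cish in AB1, the calls of all site differences of pathway genes described next were lost with lane and with the tissue scores. Some values moved little, as for Stc2 in AE17 (-2.12 with lane and -2.16 with tissue scores, against -2.15) and Socs2 in AB1 (-0.81 and -1.03, against -0.84). The interaction of 0 of 44 pathway genes passed with lane, where 117 of all 15681 genes did and 2594 had an unadjusted p under 0.05. The ligands and binding proteins outside the 10 had 3 of 5 genes with a row and none with enough counts for the test, and Igfbp1, a binding protein of liver, held at most 1 count in any tumor.

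Among the IGFBP proteases and their inhibitors, Stc2, stanniocalcin 2, an inhibitor of PAPP-A, was lower in IPL tumors of both models. It ran from 8.87 CPM through 10.5 CPM to 16.5 CPM in AB1 SC and from 3.76 CPM through 6.44 CPM to 8.7 CPM in AB1 IPL tumors, which did not overlap (-0.87, SE 0.16, adjusted p = 9.31e-04). In AE17 it ran from 1.56 CPM through 4.9 CPM to 10.1 CPM (SC) and from 0.342 CPM through 1.11 CPM to 1.86 CPM (IPL), where the ranges overlapped (-2.15, SE 0.40, adjusted p = 0.00933). The fall was larger in AE17 (difference -1.30, SE 0.42, adjusted p = 0.0257). Pappa, the protease PAPP-A that cuts IGFBP4, was lower in AE17 IPL than AE17 SC tumors (-0.61, SE 0.14, adjusted p = 0.0244) and had means of 14.9 ± 3.3 CPM in AE17 SC and 9.72 ± 1.94 CPM in AE17 IPL tumors against 0.649 ± 0.327 CPM and 0.918 ± 0.526 CPM in AB1 SC and AB1 IPL tumors. Htra1, a serine protease that cuts IGFBPs, was higher in AB1 IPL than in AB1 SC tumors (0.85, SE 0.19, adjusted p = 0.0039). Its mean of 230 ± 63.3 CPM in AE17 SC tumors stood 21.2-fold above the 11 ± 1.95 CPM of AB1 SC tumors (log2 fold change 4.41, SE 0.20, adjusted p = 1.19e-18). All 5 tested genes of this list differed between the models at each site, 4 higher and 1 lower in AE17, against 58.3% (SC) and 63.4% (IPL) of all genes. One of the 4, Pappa2, had too few counts in AB1 for a site test and entered this fit only through AE17, where it is higher, so nothing is read from its call.

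Of the genes that act on the Igf2 locus or its mRNA, Plagl1, an imprinted zinc finger factor known to activate Igf2 and H19, was higher in AB1 IPL tumors (1.05, SE 0.32, adjusted p = 0.0237), but 0.39 with lane and 0.12 with the tissue scores as covariates. Its value in AE17 was 0.70 (SE 0.31, adjusted p = 0.173), but -0.05 with lane and 0.22 with the tissue scores. Hmga2, a chromatin protein known to raise Igf2bp2, was lower in IPL tumors of AB1 (-0.55, SE 0.19, adjusted p = 0.0473) and AE17 (-1.17, SE 0.25, adjusted p = 0.0174). With H19, 2 of the 9 tested genes were higher and 1 lower in AB1, and 0 higher and 1 lower of 8 in AE17, against 23% and 5.73% of all genes called.

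Among receptor signaling genes 6 of 24 tested were higher and 2 lower in AB1 IPL tumors, and 0 of 25 passed in AE17, against 23% and 5.73% of all genes. Grb10, an imprinted adaptor that restrains IGF1R and insulin receptor signaling, was higher in AB1 IPL tumors (1.10, SE 0.21, adjusted p = 0.00134), as was the phosphoinositide 3-kinase subunit Pik3r2 (0.72, SE 0.11, adjusted p = 2.63e-04). With the tissue scores these values were 0.66 and 0.43. Insrr, a receptor kinase of the insulin receptor family that senses alkaline medium, was lower (-1.45, SE 0.27, adjusted p = 0.00108) at 0.504 ± 0.181 CPM against 1.36 ± 0.542 CPM. Insr, the insulin receptor, which was chosen after its values were seen because of its kinship to Igf1r, was also lower (-0.52, SE 0.11, adjusted p = 0.00212), and its site effect differed between models (0.46, SE 0.12, adjusted p = 0.00887).

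In the growth hormone axis, the feedback inhibitors Cish (-1.55, SE 0.26, adjusted p = 4.45e-04) and Socs2 (-0.84, SE 0.18, adjusted p = 0.00248), both targets of STAT5, were lower in AB1 IPL tumors, and 2 of 5 tested genes fell and 0 rose, against 1571 of all 14645 genes that fell. Cish ran from 14.8 CPM through 31.1 CPM to 57.6 CPM in AB1 SC and from 6.97 CPM through 9.96 CPM to 18.6 CPM in AB1 IPL tumors. In AE17 the values were 0.08 (SE 0.15) for Cish and 0.10 (SE 0.10) for Socs2, and the site effects differed between the models by 1.61 (SE 0.31, adjusted p = 6.68e-04) and 0.93 (SE 0.21, adjusted p = 0.00263). The 2 genes respond to several cytokines besides growth hormone. Across the 44 tested genes of the lists the site effect differed between models for 13, against 20.5% of all genes. The 13 include Grb14, named after its values were seen, which had too few AB1 counts for a site test and entered this fit only through AE17, so its call is not read.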

How the data were processed

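RNA-seq was performed on whole tumors with 50 bp single-end reads. The authors mapped reads with HISAT2 2.0.4 (per the labels) to a mouse build that the study's methods call mm11, counted them per gene with SummerizeOverlaps, and deposited raw counts. The strand setting is not given in the sources used here. Coordinates are from GENCODE M21 (GRCm38), matched by gene identifier. Total counts were 15432258 to 20649645. All 32 columns were used.

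Site was tested separately in AB1 and AE17 with edgeR 4.0.16 in R 4.3.3 (filterByExpr, TMM, robust quasi-likelihood F test, two-sided), and the interaction and the models in 1 fit of 4 groups. P values were adjusted by Benjamini-Hochberg over all genes tested, and an adjusted p under 0.05 was called. DESeq2 1.42.0 and limma 3.58.1 were alternatives, with other filters, scalings, covariates and tumors left out. Intervals are t intervals from the SE.

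Replicates were separate mice. Named genes are the 10 members, the 3 largest called changes per pathway list and site comparison, the 3 genes most like each member (mean of at least 1 CPM, which left out Igfbp2) and at most 3 genes per marker list. Members and lists were chosen with earlier results of these data known.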

Additional observations from a re-analysis of the deposited data

Results flagged for a closer look

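Single tumors stood far from the other 7 of their group for 6 of 40 gene-by-group sets, where chance gives about 1 in 20. Igf1 was 72.1 CPM in AB1 SC replicate 6 (next 43.8 CPM) and 102 CPM in AE17 IPL replicate 5 (next 53 CPM). Igf2 was 3.65 CPM in AE17 SC replicate 8 (next 1.53 CPM), the tumor in which Igfbp3 was also the highest of its group at 59.6 CPM (next 40.1 CPM). Igfbp4 was 554 CPM in AB1 SC replicate 6 (next 378 CPM), the same tumor as for Igf1. Igfbp6 was 122 CPM in AE17 SC replicate 6 (next 85.5 CPM).

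The site effect differed between the models, by the interaction test of edgeR, for Igf2r (AE17 minus AB1 -0.89 on the log2 scale, adjusted p = 7.84e-06), Igfbp3 (1.25, adjusted p = 0.031) and Igfbp4 (-0.65, adjusted p = 0.0387).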

How the results depend on the processing

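Of the 10 genes, 2 passed in AB1. The count was 3 by limma-voom (with Igfbp3), 1 with at least 10 counts in every tumor, with lane or tissue scores as covariates and within lane 3, and 2 to 4 without 1 tumor, with Igf2r among them each time. In AE17, 1 passed. The count was 2 by limma-voom (Igf1 and Igfbp3, not Igfbp2), 0 without a filter, with at least 10 counts in every tumor, with lane or tissue covariates, within lane 1 and at an adjusted p under 0.01, and 0 to 2 without 1 tumor. The interaction passed for 3 genes, for 1 without a filter, with the lane covariate and at 0.01, for 2 to 3 without 1 tumor, and for 4 by limma-voom (with Igf1, -0.68, adjusted p = 0.0254). Between models, with Igfbp2 counted, 6 genes passed in SC (3 with lane, 6 to 7 without 1 tumor) and 5 in IPL (3 with lane, 5 to 7 without 1 tumor, 7 by limma-voom with Igfbp3 and Igfbp7). Of pathway genes, 15 passed in AB1 (2 with lane, 3 with tissue scores, 2 within lane 3, 13 to 16 without 1 tumor) and 3 in AE17 (8 by DESeq2, 16 by limma-voom, 0 with lane, with tissue scores and within lane 1, 1 at 0.01, 2 to 10 without 1 tumor). The causes were not tested, except that smaller sets of tumors enter the within-lane fits. Over all genes, limma-voom called 4615 of 14645 in AB1 and 3959 of 14668 in AE17, against 3374 and 840 by edgeR. For the interaction it called 4606 of 15681, against 3212, and between IPL tumors 10559, against 9940. DESeq2 called 1774 of 17967 in AE17. With lane, with tissue scores and within 1 lane, 386, 689 and 169 of all genes passed in AB1, and 1, 39 and 14 in AE17.

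Signs turned only for values that did not pass. In AB1 Igf1 was -0.03 with the replicate block, -0.04 with lane, -0.26 with tissue scores and -0.08 within lane 3, and -0.17 to 0.21 without 1 tumor. Igf1r was -0.01, -0.09 and -0.05 with lane, tissue scores and within lane 3, and -0.03 to 0.06 without 1 tumor. Igfbp5 was -0.22, -1.04 and -0.28 in the same 3 fits, Igfbp3 was 0.15 with tissue scores, and Igfbp6 was -0.09 by limma-voom, -0.01 with lane, -0.06 within lane 3 and -0.06 to 0.14 without 1 tumor. In AE17 Igf2r was 0.05 by limma-voom and -0.04 to 0.03 without 1 tumor. With lane the interaction of Igf1r was 0.01 (-0.06 to 0.01 without 1 tumor), and in SC tumors the model values were -0.30 for Igf2 and -0.05 for Igfbp6 (-0.04 to 0.22 without 1 tumor). Igfbp6 between IPL tumors was 0.08 by limma-voom.

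Replicate numbers are shared by IPL and SC tumors of different mice. Same-numbered residuals had a mean r of -0.12 in AB1 (-0.29 to -0.01) and 0.07 in AE17 (-0.23 to 0.27, 5 of 8 over 0.1), and 0 and 3 of 8 tumors correlated best with their own number, so the numbers were not taken to pair the tumors, which is plainer in AB1 than in AE17. With the replicate block the AE17 count was 0 (Igfbp2 1.82, adjusted p = 0.0598) and 2263 of all genes passed in AB1 against 3374 without it. The AB1 count stayed at 2 (Igf2 2.32, Igf2r 0.85), and Igfbp5 between SC tumors passed (-1.13, adjusted p = 0.0261).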
